A study of Mus musculus with 24 samples.

Results

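The steroid hormone receptors and their orphan relatives were followed as a set of 9 named genes out of 24958 in left ventricular (LV) mRNA. The set was chosen by gene symbol and holds the estrogen receptors Esr1, Esr2 and Gper1, the progesterone receptor Pgr, the glucocorticoid receptor Nr3c1, the mineralocorticoid receptor Nr3c2, and the estrogen-related receptors Esrra, Esrrb and Esrrg. All 9 were in the table, and 7 had a mean normalized value of at least 10, the minimum for a test across all genes. Esr2 and Pgr were under it.

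Bulk RNA sequencing covered 24 LV libraries from mice aged 24 months, 4 in each of 6 groups. The questions were what loss of the gonads in midlife and a hypertensive stimulus do to the old heart. Gonadectomized males (male Gx) had lost their gonads at 12 months and were set against intact males (male Ctrl). Females were ovariectomized at 12 months and given angiotensin II (Ovx + AngII), left intact and given AngII (Ctrl + AngII), ovariectomized without AngII (Ovx), or intact without AngII (Ctrl). AngII, the pressor peptide of the renin-angiotensin system, was infused for the last 4 weeks of life, and no male received it. The females were C57BL6/J mice. By the study's methods the RNA of 2 mice was combined for each LV library, and every n and SD below therefore describes such pools. An AngII animal of this age was killed early and the pools name no animals, which leaves the makeup of the Ctrl + AngII libraries unsettled.

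Nuclear steroid receptors are transcription factors. A steroid enters the cell, frees its receptor from a chaperone complex built on heat shock proteins, and the receptor then binds DNA and recruits coactivators or corepressors. In the heart the glucocorticoid and mineralocorticoid receptors both bind corticosterone or aldosterone, and the enzymes Hsd11b1 and Hsd11b2 make or destroy the active glucocorticoid before it reaches them. Gper1 differs from the others in being a membrane receptor coupled to G proteins. The estrogen-related receptors bind no known natural estrogen and, with the coactivator Ppargc1a, drive genes for fatty acid oxidation and mitochondrial respiration in cardiomyocytes.

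The nuclear receptors read DNA through a short stretch of the first zinc finger, and 8 of the 9 genes carry it. The stretch of 8 codons is shown because it splits the set into its branches. It was found in the GENCODE M21 transcripts and is written 5′ to 3′, with capitals on the 3 codons whose encoded residue is never shared between the estrogen-type receptors and Pgr, Nr3c1 and Nr3c2. Nr3c1 is not shown.
Esr1: tgcGAAGGCtgcaagGCTttcttt
Esr2: tgtGAAGGAtgtaagGCCtttttt
Esrra: tgtGAGGCCtgcaaaGCCttcttc
Esrrb: tgcGAGGCTtgcaagGCGttcttc
Esrrg: tgtGAAGCCtgcaagGCAttcttc
Pgr: tgtGGGAGCtgcaagGTCttcttt
Nr3c2: tgcGGCAGCtgcaaaGTCttcttc
As background, the estrogen-type receptors bind sites built on GGTCA, while Pgr, Nr3c1 and Nr3c2 bind sites built on AGAACA.

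The libraries carried a clear LV signature, as the 11 ventricular cardiomyocyte markers summed to between 1997000 and 2406000 normalized units in every group, against 186 to 916 for the 5 atrial markers. The deposited values of a library summed to 19358943 to 25889811, with 15231 to 16604 genes above 0. Ctrl + AngII library 40 was the shallowest, at about 0.446 of the median depth as read from its smallest values. As deposited, groups stood as far as 0.359 log2 units apart in overall level. A median-of-ratios factor per library removed this, and every level below is a normalized value on the common scale. Without this step the median of all genes sat at -0.28 in Ctrl + AngII against Ctrl and at -0.36 in male Ctrl against Ctrl, and the genes past the adjusted p there were 298 higher and 6688 lower, and 37 higher and 9295 lower. On the common scale these splits were 663 higher and 466 lower, and 101 higher and 64 lower. The tests were limma fits of log2(value + 1), a scale that understates the change of low genes. Calls needed an adjusted p (Benjamini-Hochberg, all tested genes) of 0.05 or less and a log2 fold change of 1 or more in either direction, and a second count used the adjusted p alone.

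Per kb of transcript, Esrra was the most abundant of the set in LV, and the classical sex steroid receptors were the least abundant. The level of Esrra averaged 1520 ± 94.2 normalized units per kb over the 24 libraries (SD). Nr3c1 followed at 378 ± 26.0, Esrrb at 308 ± 26.4 and Esrrg at 253 ± 30.0 per kb, then Nr3c2 at 109 ± 22.7, Gper1 at 20.3 ± 3.93 and Esr1 at 5.87 ± 1.96 per kb. Nr3c1 and Esrrb, and Esrrb and Esrrg, overlapped in range, although Nr3c1 was above Esrrb in 24 of 24 libraries and Esrrb above Esrrg in 23 of 24. Pgr and Esr2 overlapped at the bottom of the order, and all other neighbours had separate ranges. Lengths were those of the longest principal transcript, and these overlaps and separations depend on that choice. The shortest principal transcript of Esr1 is 2612 bases in place of 6339, and that of Nr3c1 is 4989 in place of 6436. Ranges with the shorter lengths are not given here. In all, 94.5% of the detected genes had a mean below Esrra, and 35.9% had one below Esr1, both ranks without correction for length.

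**Figure D1:**
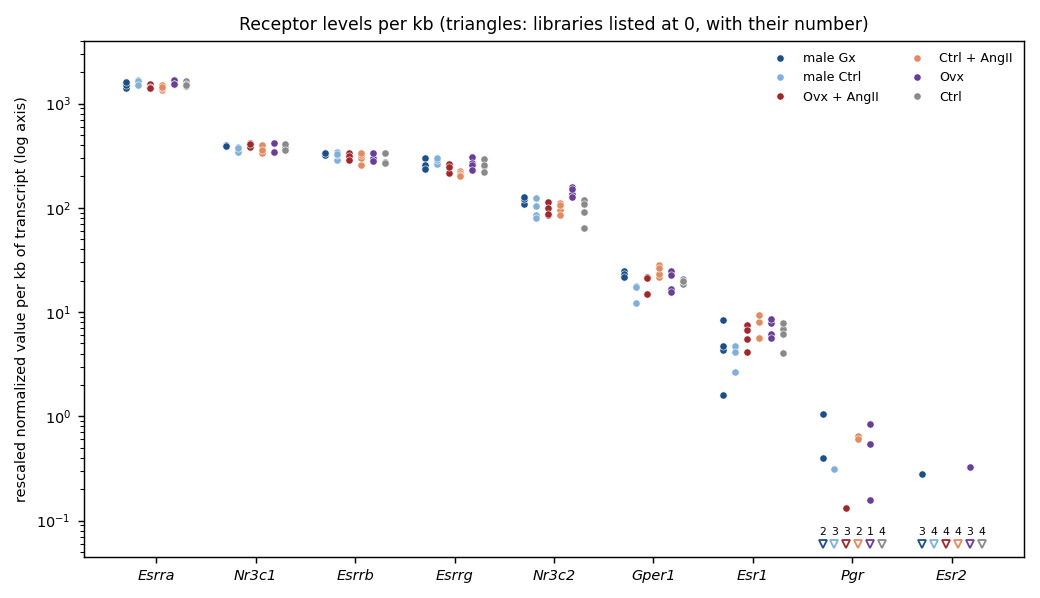
Normalized value per kb of the longest principal transcript (log axis) for the 9 receptor genes, ordered by mean, with 1 point per library and a column per group; triangles with a number count the libraries listed at 0. The order runs from Esrra at 1360 to 1700 per kb down to Pgr and Esr2, which were listed at 0 in most libraries.

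Esr1 (mm10, chromosome 10, 4611593 to 5005614, plus strand, 10 exons in its longest principal transcript) encodes the nuclear estrogen receptor alpha. Its values were 10.1, 27.3, 53.1 and 29.8 in male Gx, against 29.1, 30.0, 16.8 and 26.0 in male Ctrl. They were 47.2, 26.3, 42.4 and 34.9 in Ovx + AngII, against 50.6, 36.1, 36.1 and 59.4 in Ctrl + AngII. Ovx libraries had 39.2, 50.3, 35.7 and 54.4, against 25.7, 43.9, 39.3 and 49.8 in Ctrl. Every group overlapped its counterpart, and male Gx alone spanned the range from the lowest library of all 24 to one of the highest. The pooled within-group SD of 0.505 on the log2 scale was the largest among the 7 tested receptors. The biggest Esr1 difference was male Ctrl against Ctrl, -0.61 on the log2 scale (95% interval -1.33 to 0.10), with an adjusted p of 0.478 from limma. Ovx against Ctrl gave 0.19 (-0.37 to 0.75) and male Gx against male Ctrl 0.05 (-0.66 to 0.77).

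Esr2 (chromosome 12, 76120419 to 76177259, minus strand), the gene of estrogen receptor beta, was listed at 0 in all but 2 libraries. It stood at 0.912 in male Gx library 36 and at 1.08 in Ovx library 44. Pgr (chromosome 9, 8899833 to 8968611, plus strand), a classical estrogen target in reproductive tissue, was above 0 in 9 libraries. These were 2 male Gx libraries at 2.74 and 7.29, male Ctrl library 32 at 2.16, Ovx + AngII library 48 at 0.918, Ctrl + AngII libraries 40 and 42 at 4.47 and 4.15, and Ovx libraries 43, 44 and 53 at 5.81, 1.08 and 3.73. All 4 Ctrl libraries listed Pgr at 0. Values of this size are worth only a few reads each and whole reads could not be recovered, so no fold is given, and no exact permutation test of Pgr went under 0.143 in any of 6 comparisons.

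Gper1 (chromosome 5, 139423151 to 139427800, plus strand) encodes the membrane estrogen receptor. It lies within 3110082I17Rik on the opposite strand, and whether the counting used strand is not given in the sources used here, so reads of that gene may be among its own. Male Gx libraries had 63.1, 55.6, 58.5 and 54.7, against 43.8, 45.2, 31.0 and 43.7 in male Ctrl. Ovx + AngII libraries had 37.4, 54.6, 38.1 and 53.8, against 55.6, 71.4, 58.4 and 66.9 in Ctrl + AngII. Ovx libraries had 42.4, 39.6, 62.4 and 57.6, against 47.1, 52.9, 50.8 and 50.3 in Ctrl. Male Gx thus lay wholly above male Ctrl, Ovx + AngII wholly below Ctrl + AngII, Ctrl + AngII wholly above Ctrl and male Ctrl wholly below Ctrl, while Ovx and Ctrl overlapped. Each of these 4 separations reached the smallest p that the exact permutation test over 70 splits can give, 0.0286. In limma none passed. The log2 difference was 0.51 in male Gx against male Ctrl (95% interval 0.10 to 0.91, adjusted p = 0.465), -0.46 in Ovx + AngII against Ctrl + AngII (adjusted p = 0.396), 0.32 in Ctrl + AngII against Ctrl (adjusted p = 0.408) and -0.30 in male Ctrl against Ctrl (adjusted p = 0.546). These comparisons share the libraries of Ctrl + AngII, male Ctrl and Ctrl.

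Separated libraries were not rare across genes. In male Gx against male Ctrl 5.05% of tested genes did not overlap between the groups, and of the 7 tested receptors Gper1 and Nr3c1 did not. Elsewhere 1 receptor each was separated, where the share of all tested genes was 6.81% in Ovx + AngII against Ctrl + AngII, 12.8% in Ctrl + AngII against Ctrl, 16.5% in Ovx + AngII against Ovx, 6.01% in Ovx against Ctrl and 6.4% in male Ctrl against Ctrl. In all, 7 of 54 exact tests of the receptors were separations of this kind. The 54 include the tests of Esr2 and Pgr, which overlapped in every comparison. Genes with such low values are not in the shares of all tested genes.

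**Figure D2:**
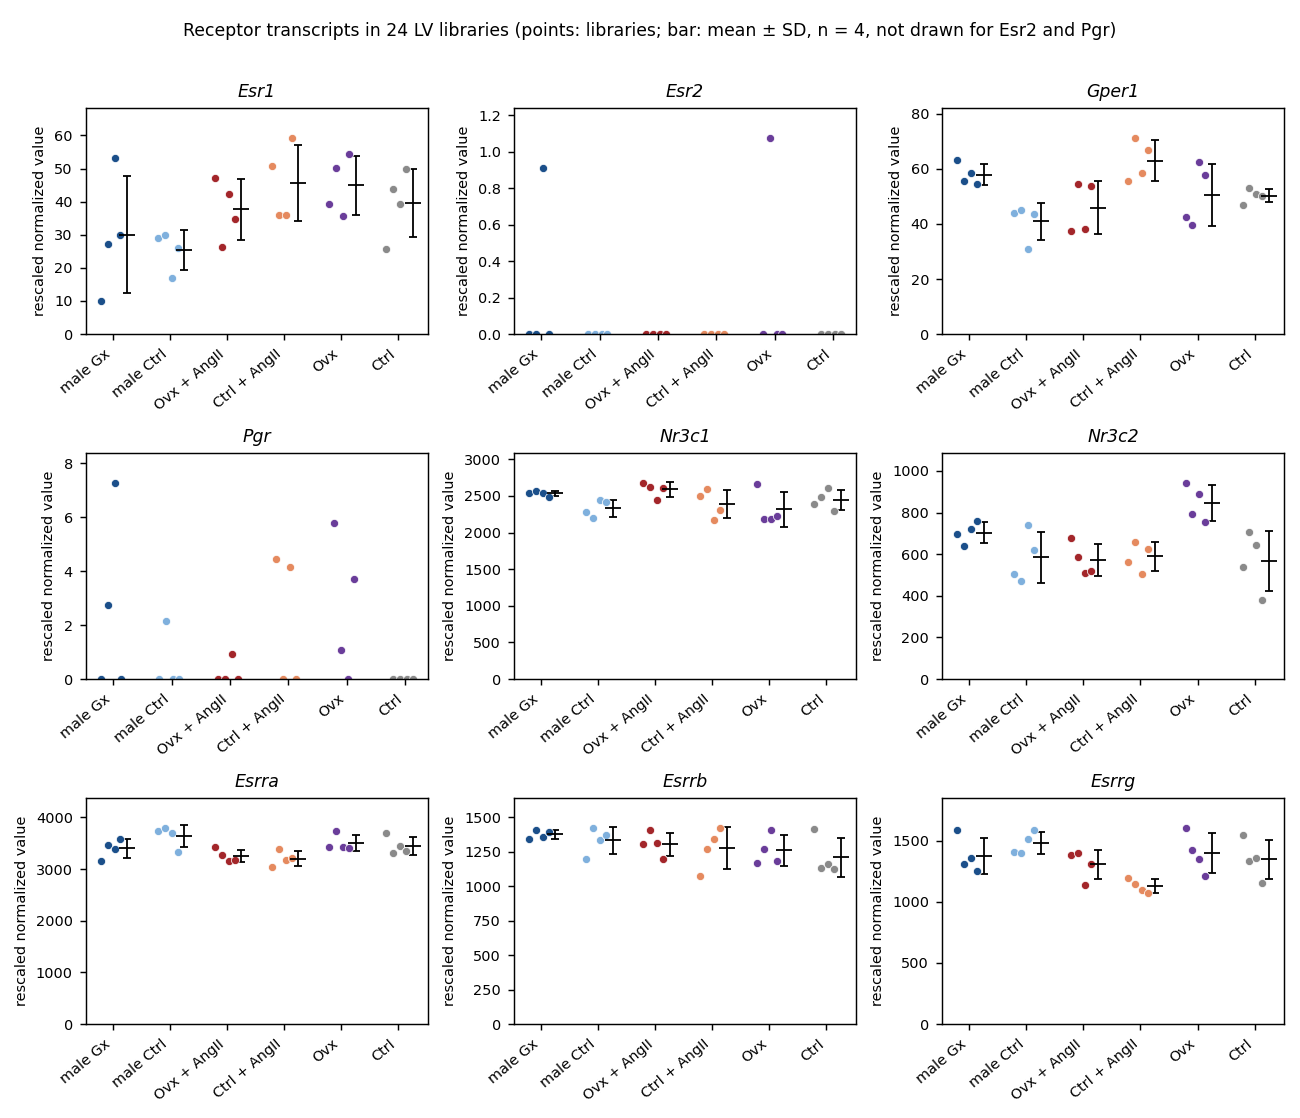
Normalized value (vertical axis, starting at 0) of each receptor gene in 24 LV libraries, grouped as male Gx, male Ctrl, Ovx + AngII, Ctrl + AngII, Ovx and Ctrl; points are libraries in order of their number and bars are mean ± SD (n = 4), not drawn for Esr2 and Pgr. Nr3c2 in Ovx, at 754 to 944, lies above both Ovx + AngII and Ctrl, while Esrra stays between 3043 and 3801 in every library.

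Nr3c1 (chromosome 18, 39410545 to 39519421, minus strand) encodes the glucocorticoid receptor and varied little. It averaged 2536 ± 32.1 in male Gx and 2331 ± 116 in male Ctrl (SD, n = 4 each), and the male Gx libraries, at 2492 to 2568, all lay above the male Ctrl libraries at 2194 to 2442. The step was small, 0.12 on the log2 scale, with an adjusted p of 0.616 from limma (exact permutation p = 0.0286). Among females it averaged 2590 ± 104 in Ovx + AngII and 2316 ± 234 in Ovx, a log2 difference of 0.17 (95% interval 0.02 to 0.31, adjusted p = 0.149). Ovx library 43 stood apart at 2666 where the other Ovx libraries had 2182 to 2225, and without it this difference was 0.24 with an adjusted p of 0.0216. Ctrl + AngII averaged 2391 ± 190 and Ctrl 2445 ± 131, and these libraries overlapped.

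Nr3c2 (chromosome 8, 76899442 to 77245012, plus strand, 9 exons) encodes the mineralocorticoid receptor, the receptor of aldosterone and the target of spironolactone and eplerenone. It was the 1 receptor of 7 tested that passed the adjusted p in any comparison, and it did so in Ovx females given AngII. Ovx + AngII libraries had 676, 586, 509 and 521, against 944, 793.5, 891 and 754 in Ovx. No Ovx + AngII library reached the lowest Ovx library. Nr3c2 fell by 0.56 on the log2 scale (SE 0.15, 95% interval -0.88 to -0.25), with an adjusted p of 0.0203 from limma over 13816 genes, which is under the fold threshold. At the adjusted p alone 5.08% of all tested genes were lower in this comparison, and 1 receptor against that background is no result about the set. In bulk LV, fewer cells that express Nr3c2 and less Nr3c2 RNA per cell cannot be told apart. Leaving out Ovx library 45 (adjusted p = 0.0616), Ovx + AngII library 48 (0.0714) or Ovx + AngII library 54 (0.0634) took the call away, as did a limma fit without a mean trend in the variance (0.0519), with the difference at -0.51 or beyond in all of them.

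In intact females the Nr3c2 libraries with and without AngII overlapped. Ctrl + AngII libraries had 564, 661, 507 and 624, against 538, 707, 646 and 381 in Ctrl. The lowest value of all 24 libraries was that of Ctrl library 51, and the log2 difference was 0.08 (95% interval -0.23 to 0.40). The 2 AngII effects differed by -0.65 (95% interval -1.09 to -0.20), Ovx minus Ctrl, which had an unadjusted p of 0.00651 and an adjusted p of 0.282 from limma, short of the threshold over all genes.

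Without AngII, Nr3c2 was higher in all 4 Ovx libraries (754 to 944) than in all 4 Ctrl libraries (381 to 707). The log2 difference was 0.61 (95% interval 0.29 to 0.92), with an exact permutation p of 0.0286 and an adjusted p of 0.107 from limma, short of the threshold. It shares the Ovx libraries with the AngII comparison above, so high values in these 4 libraries enter both. Leaving out Ctrl library 39 moved the adjusted p to 0.049, and leaving out Ctrl library 51 moved the difference to 0.43 (adjusted p = 0.291). Under AngII the averages were 573 ± 76.7 in Ovx + AngII and 589 ± 67.6 in Ctrl + AngII (SD, n = 4 each), a log2 difference of -0.04 (95% interval -0.36 to 0.27). In males Nr3c2 averaged 702.5 ± 50.5 in male Gx and 585 ± 122 in male Ctrl, with overlapping libraries and a log2 difference of 0.28 (95% interval -0.03 to 0.59, adjusted p = 0.618). The gonadectomy effects of males and females differed by -0.32 (95% interval -0.76 to 0.12).

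Marker lists of other cell types differed in these Nr3c2 comparisons, and their part in the result was not tested. The summed 8 adipocyte markers lay at 6134 to 7175 in Ovx + AngII and at 7360 to 7665 in Ovx, and the Ovx sums in turn lay below the 8051 to 11670 of Ctrl. None of the 4 adipocyte markers tested passed the adjusted p in either comparison. Their median log2 difference was 0.33 in Ovx + AngII against Ovx, opposite in sign to the sum, and -0.56 in Ovx against Ctrl, and Ucp1 was at 0 in all 3 groups. The 9 markers of pericytes and smooth muscle had median differences of the same sign as Nr3c2 in both, -0.32 in Ovx + AngII against Ovx (1 of 9 lower at the adjusted p) and 0.28 in Ovx against Ctrl (0 of 9 called). Their sums overlapped, at 34290 to 41540 in Ovx + AngII, 40150 to 44590 in Ovx and 38610 to 40410 in Ctrl. The same signs were found for the medians of Schwann cell markers (-0.48 and 0.20) and lymphocyte markers (-0.32 and 0.38). The sums of both lists overlapped in both comparisons. Schwann cell sums averaged 1756 in Ovx + AngII, 1766 in Ovx and 1770 in Ctrl, so they did not share this pattern. Lymphocyte sums averaged 176, 251 and 203 in the same order. None of these Schwann cell or lymphocyte markers was called. Ventricular cardiomyocyte medians had these signs too, near 0 (-0.031 and 0.006). The 10 fibroblast markers summed to 74200 to 83330 in Ovx + AngII and 66270 to 72490 in Ovx, with 4 of 10 higher at the adjusted p, and overlapped between Ovx and Ctrl (59300 to 73370) with 0 of 10 called. The 5 atrial markers summed to 532 to 680 in Ovx + AngII and 335 to 420 in Ovx, with 1 of 2 tested higher. Ventricular cardiomyocyte markers overlapped, at 1997000 to 2139000 in Ovx + AngII and 2088000 to 2226000 in Ovx, with 2 of 11 lower.

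A start-site window of Nr3c2 is shown because this receptor passed the test. The window is that of RefSeq, 300 bases around a start site (GRCm38.p6, plus strand), 250 before and 50 from it on, at chr8:76902080-76902379. It lies inside the GENCODE gene, which begins at 76899442, and which start site is used in LV was not tested. Capitals mark TGACC, the reverse complement of GGTCA.
Nr3c2: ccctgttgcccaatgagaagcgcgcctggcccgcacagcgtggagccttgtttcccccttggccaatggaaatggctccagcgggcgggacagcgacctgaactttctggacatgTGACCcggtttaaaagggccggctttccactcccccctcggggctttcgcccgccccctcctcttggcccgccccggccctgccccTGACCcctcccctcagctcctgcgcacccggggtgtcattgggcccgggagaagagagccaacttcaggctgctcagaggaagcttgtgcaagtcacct
The capitals start 135 and 49 bases before the start site. GGTCA was searched on both strands and was found at least once in 40.5% of 32851 mouse promoter windows and at least 2 times in 10.8%. Among 13 windows of 8 receptors, those of Nr3c2 and Esr2 held 2 each. AGAACA, in 19% of all windows, was in 1 of the 13, a window of Esrrb. The palindromes GGTCANNNTGACC and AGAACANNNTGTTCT, in 0.07% and 0.00913% of all windows, and TCAAGGTCA, in 0.423%, were in none of the 13. These matches describe letters and not binding, and the longer motifs contain the shorter ones.

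Esrra (chromosome 19, 6910977 to 6921813, minus strand), a main regulator of mitochondrial genes, had the smallest within-group spread of the 7, 0.07 on the log2 scale. It overlaps Trmt112 on the other strand. It averaged 3397 ± 179 in male Gx and 3643 ± 208 in male Ctrl, 3254 ± 119 in Ovx + AngII and 3201 ± 139 in Ctrl + AngII, and 3502 ± 160 in Ovx and 3451 ± 175 in Ctrl (SD, n = 4 each). Both AngII differences were about the same size on the log2 scale, -0.11 in Ctrl + AngII against Ctrl (adjusted p = 0.247) and -0.10 in Ovx + AngII against Ovx (adjusted p = 0.223), and libraries overlapped in both.

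Esrrb (chromosome 12, 86361117 to 86521628, plus strand) and Esrrg (chromosome 1, 187608791 to 188214885, plus strand) encode the other members of this branch, Esrrg being a regulator of the switch to oxidative metabolism in the perinatal heart. Esrrb averaged 1376 ± 31.2 in male Gx and 1333 ± 97.8 in male Ctrl, 1305 ± 84.3 in Ovx + AngII and 1277 ± 149 in Ctrl + AngII, and 1260 ± 111 in Ovx and 1209 ± 139 in Ctrl. No group of Esrrb was separated from its counterpart. Esrrg libraries had 1198, 1149, 1096 and 1070 in Ctrl + AngII, against 1544, 1332, 1355 and 1154 in Ctrl. Only Ctrl library 51 reached into the Ctrl + AngII range, and the log2 difference was -0.25 (95% interval -0.44 to -0.05, adjusted p = 0.113 from limma, exact permutation p = 0.0571). Without that library it was -0.32 with an adjusted p of 0.0436. In Ovx females Esrrg averaged 1308 ± 119 in Ovx + AngII and 1399 ± 163 in Ovx, a log2 difference of -0.09 (adjusted p = 0.578). The Esrrg averages in males were 1376 ± 147 in male Gx and 1479 ± 92.0 in male Ctrl. Esrra, Esrrb and Esrrg were 0.08, 0.14 and 0.14 higher on the log2 scale in male Ctrl than in Ctrl, none past the adjusted p, and with the values as deposited these became -0.28, -0.21 and -0.22.

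**Figure D3:**
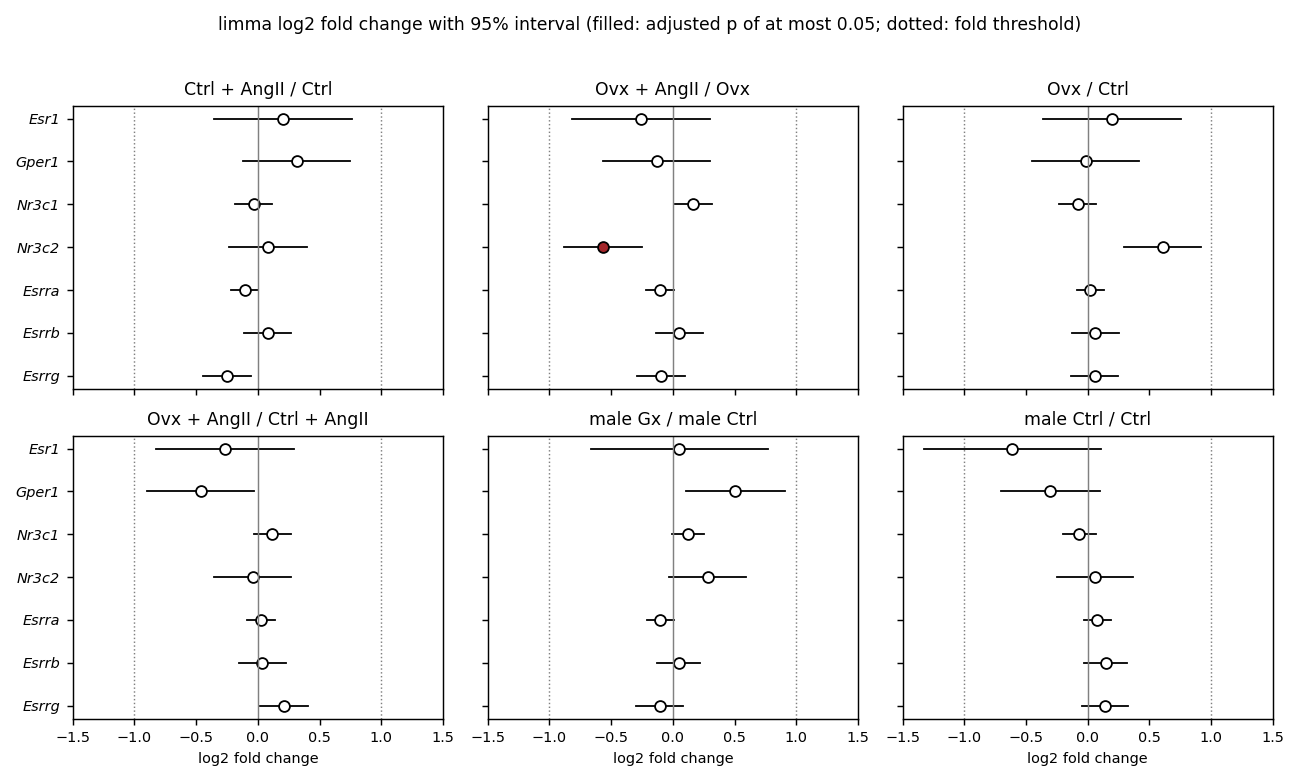
limma log2 fold change (horizontal axis) with its 95% interval for the 7 tested receptors in 6 comparisons, each panel naming its groups as numerator / denominator; filled points passed an adjusted p of 0.05 and dotted lines mark the fold threshold of 1. The single filled point is Nr3c2 in Ovx + AngII against Ovx, and the Esr1 intervals are the widest.

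Over all comparisons, no receptor passed the adjusted p together with the fold threshold in limma. The share of all tested genes that did was 1.19% in Ctrl + AngII against Ctrl, 1.11% in Ovx + AngII against Ovx, 0.0941% in Ovx + AngII against Ctrl + AngII, 0.029% in male Gx against male Ctrl, 0.232% in male Ctrl against Ctrl and 0 in Ovx against Ctrl. At the adjusted p alone the shares in the same order were 8.17%, 10.2%, 1.01%, 0.0797%, 1.2% and 0.109%. At an unadjusted p under 0.05 the receptors counted 1 of 7 in Ctrl + AngII against Ctrl (Esrrg), where 21.6% of all genes did, and 2 in Ovx + AngII against Ovx (Nr3c1 and Nr3c2), where 25.1% did. The count was 2 in Ovx + AngII against Ctrl + AngII (Gper1 and Esrrg, background 11.5%), 1 in Ovx against Ctrl (Nr3c2, 12.4%), 1 in male Gx against male Ctrl (Gper1, 8.54%) and 0 in male Ctrl against Ctrl (12.9%). The difference of the AngII effects had 1 (Nr3c2, 10.4%) and the difference of the gonadectomy effects had 1 (Nr3c1, 6.07%), and there 0.0579% and 0.00725% of all genes passed the adjusted p, with 0.00724% and 0.00725% also past the fold threshold.

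The list of steroid metabolism holds 28 genes, of which 14 could be tested. Their mRNA does not measure hormone supply, and steroid levels are not part of these data. In each AngII comparison 1 of the 14 was higher and 1 lower at the adjusted p. Of all genes 4.8% were higher and 3.37% lower in Ctrl females, and 5.09% and 5.08% in Ovx females. Star, which moves cholesterol into mitochondria for steroid synthesis, averaged 217 ± 94.7 in Ovx + AngII and 62.8 ± 13.2 in Ovx, and 212 ± 44.4 in Ctrl + AngII and 47.7 ± 7.01 in Ctrl. It rose by 1.70 in Ovx and by 2.11 in Ctrl on the log2 scale (adjusted p = 2.66e-04 and 3.53e-05 from limma). Star was the 1 gene of the list past the fold threshold, where 1.11% of all genes passed in Ovx females and 1.19% in Ctrl females. Of the steps after Star, Cyp11a1 and Hsd3b1 were low and not tested. Cyp11a1 averaged 12.55 ± 6.75 in Ovx, 2.61 ± 2.24 in Ctrl, 5.96 ± 2.36 in Ovx + AngII and 8.43 ± 7.85 in Ctrl + AngII. Hsd3b1 averaged 22.1 ± 21.4 in Ovx, 4.25 ± 3.02 in Ctrl, 4.16 ± 3.55 in Ovx + AngII and 0.645 ± 1.29 in Ctrl + AngII. Further down, the aldosterone and corticosterone synthases Cyp11b2 and Cyp11b1 and the aromatase Cyp19a1 were listed at 0 in every library.

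Hsd11b1, which regenerates active glucocorticoid inside cells, differed with gonadectomy in males. It averaged 301 ± 25.5 in male Gx and 523 ± 65.0 in male Ctrl (SD, n = 4 each), and fell by 0.79 on the log2 scale (adjusted p = 3.68e-04 from limma). Male Ctrl also exceeded Ctrl, at 305 ± 41.4, by 0.78 (adjusted p = 1.06e-04), and both comparisons share the male Ctrl libraries. Among females it differed by -0.19 in Ovx against Ctrl (adjusted p = 0.48). The gonadectomy effects of males and females on Hsd11b1 differed by -0.60 (SE 0.149, adjusted p = 0.309 from limma), short of the threshold. Hsd11b2, which inactivates glucocorticoid and so keeps Nr3c2 open to aldosterone in the kidney, averaged between 1.70 in male Gx and 6.35 in Ctrl and was not tested. Of the estradiol-handling dehydrogenases, Hsd17b11 fell by 0.40 in Ovx + AngII against Ovx (adjusted p = 0.0153) and Hsd17b10 by 0.28 in Ctrl + AngII against Ctrl (adjusted p = 0.0355), while Hsd17b4 and Hsd17b12 passed nowhere.

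Chaperones of the receptors were called in both AngII comparisons, and few coregulators were. Among 15 receptor chaperones, 3 were lower and none higher in Ctrl + AngII than in Ctrl, where 3.37% of all tested genes were lower and 4.8% higher, led by Fkbp4, the immunophilin that helps steroid receptors reach the nucleus, which averaged 6211 ± 546 in Ctrl + AngII and 8983 ± 384 in Ctrl and fell by 0.54 (adjusted p = 2.46e-05). In Ovx + AngII against Ovx 2 chaperones were higher and 1 lower, where 5.09% of all genes were higher and 5.08% lower, with Hsp90aa1 at 5028 ± 520 in Ovx + AngII and 2667 ± 601 in Ovx, a rise of 0.93 (adjusted p = 5.94e-05), and Fkbp4 lower by 0.21. Dnaja1, a co-chaperone of Hsp70, fell by 0.54 in Ovx against Ctrl (adjusted p = 0.0259), the 1 chaperone called there, where 0.109% of all genes passed. None of 19 coactivators passed in Ctrl + AngII against Ctrl, and Pprc1 (0.28) and Med1 (0.21) rose in Ovx + AngII against Ovx. Ppargc1a, the partner of the estrogen-related receptors, differed by -0.31 (adjusted p = 0.0818) and 0.00 (adjusted p = 0.992) in these 2 comparisons. Perm1, Ncoa1, Ppargc1b and the corepressors Ncor1 and Nrip1 passed in none of the comparisons listed above, and Rbfox2 (0.31 in Ctrl + AngII against Ctrl) was the 1 corepressor of 11 that did. The shares of all genes past the adjusted p in these AngII comparisons were 8.17% in Ctrl and 10.2% in Ovx females.

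Among genes the receptors are known to drive, the estrogen-related receptor targets had the most lower genes with AngII. Of 45 targets, 17 were lower and none higher in Ctrl + AngII than in Ctrl at the adjusted p, with a median log2 difference of -0.19, where 3.37% of all tested genes were lower and the median was -0.005. In Ovx + AngII against Ovx 16 were lower and none higher, with a median of -0.16, where 5.08% of all genes were lower. No target passed the fold threshold. The first count was 9 without Ctrl library 37 or Ctrl + AngII library 40, 10 without Ctrl + AngII library 52 and 11 without Ctrl library 38 or 51. The second was 6 without Ovx library 44 or 45, 9 without Ovx + AngII library 48 and 10 without Ovx + AngII library 54. Without libraries 49 to 54 together the counts were 7 and 3, where 214 and 350 of all genes were lower in place of 466 and 702. Sdha, a subunit of respiratory complex II, averaged 31320 ± 1190 in Ovx + AngII and 40970 ± 2420 in Ovx and fell by 0.39 (adjusted p = 5.58e-04). Acadm, the medium-chain acyl-CoA dehydrogenase, averaged 22230 ± 2130 in Ctrl + AngII and 29400 ± 2690 in Ctrl and fell by 0.40 (adjusted p = 0.00201), and the inward rectifier channel gene Kcnj2 fell by 0.51 and 0.57 in Ctrl and Ovx females. The list holds Esrra and Ppargc1a themselves, which did not pass, and Myl3, Tnni3, Pln and Ryr2, which are also cardiomyocyte markers. Fibroblast markers were higher in both AngII groups (6 of 10 in Ctrl females and 4 of 10 in Ovx females), and their part in the target counts was not tested. None of the 45 passed the adjusted p in Ovx against Ctrl, where only 0.109% of all genes did.

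**Figure D4:**
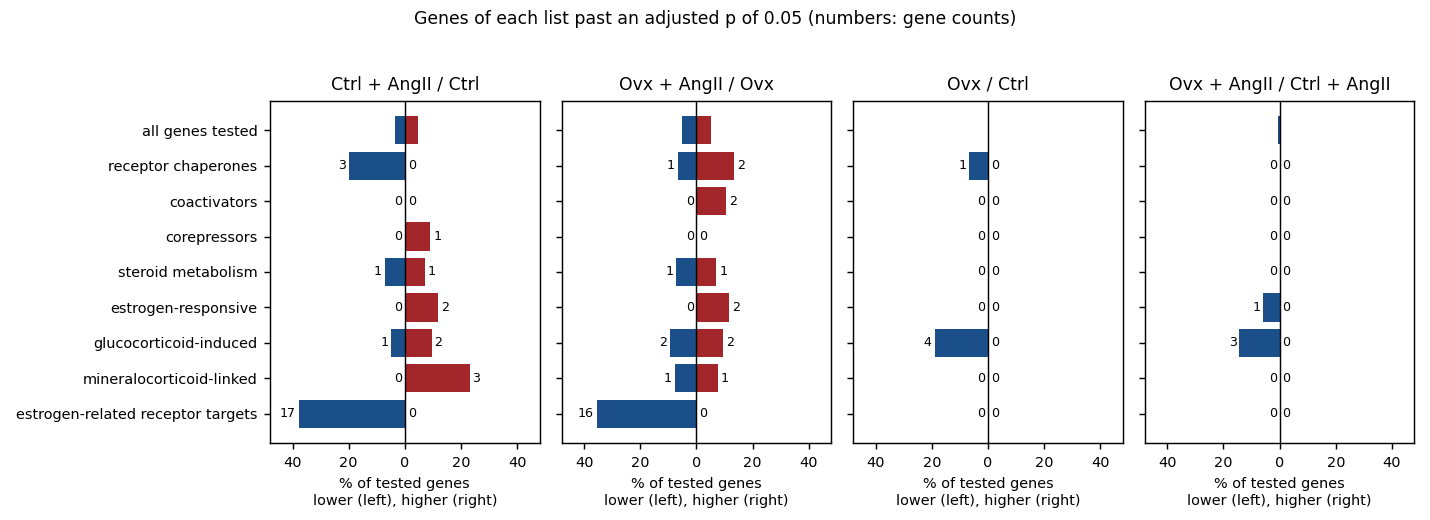
Percent of the tested genes of each list past an adjusted p of 0.05 (horizontal axis; lower to the left in blue, higher to the right in red) in 4 comparisons of female groups, with gene counts at the bars and all tested genes on top. The estrogen-related receptor targets had 17 and 16 lower genes in the AngII comparisons, and the glucocorticoid-induced list had 4 and 3 lower genes in the comparisons of Ovx groups with intact ones.

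Some glucocorticoid-induced genes were lower in ovariectomized females, while Nr3c1 itself overlapped between the groups. Of 21 tested, 4 were lower and none higher in Ovx than in Ctrl, with a median of -0.30, where 0.0579% of all genes were lower. These were Zbtb16 at 2407 ± 489 in Ovx and 4796 ± 1260 in Ctrl (fell by 0.98, adjusted p = 0.0259), Map3k6 (fell by 0.95), Cebpb (fell by 0.76) and Ddit4 (fell by 0.75). This count moved with single libraries. It was 0 without Ctrl library 37 or 51 or without Ovx library 44 or 45, and 1 without Ctrl library 38. It was 2 without Ovx + AngII library 46 or 54, 7 without Ovx library 43 and 8 without Ctrl library 39. With all libraries only 8 of 13816 genes were lower, and the counts over all genes without each library are not given here. Under AngII 3 were lower in Ovx + AngII than in Ctrl + AngII, with a median of -0.34 and a background of 0.601%. Tsc22d3, the glucocorticoid-induced leucine zipper, averaged 1602 ± 132 in Ovx + AngII and 2405 ± 212 in Ctrl + AngII and fell by 0.59 (adjusted p = 6.01e-04), with the clock gene Per1 lower by 0.71 and Cebpb by 0.68. This count was 5 without Ctrl + AngII library 40, 6 without Ctrl library 39 and 3 or 4 without any other library. With AngII, 2 of the 21 were higher and 1 lower in Ctrl females, where 4.8% of all genes were higher and 3.37% lower. In Ovx females 2 were higher and 2 lower, where 5.09% of all genes were higher and 5.08% lower. These few genes are no result about the list. The cell cycle inhibitor Cdkn1a rose by 1.33 in Ovx females. Erythroid and adipocyte markers also differed in the comparisons of Ovx groups with intact ones, and their part in these counts was not tested. The 6 erythroid markers had a median difference of -1.40 in Ovx against Ctrl, with sums of 10570 to 14520 in Ovx and 14250 to 56310 in Ctrl, and of -1.04 in Ovx + AngII against Ctrl + AngII, with sums of 9488 to 22200 in Ovx + AngII and 19810 to 70990 in Ctrl + AngII. None of the 6 passed the adjusted p in either, and the Hbb-bs marker was at 0 in all libraries of both Ovx groups. The adipocyte sums were lower in every Ovx than in every Ctrl library, as given with Nr3c2, and overlapped under AngII, at 6134 to 7175 in Ovx + AngII and 6745 to 9337 in Ctrl + AngII. Several of these genes also answer to clock time and stress, and their levels vary widely among male Ctrl libraries, as with Zbtb16 at 1073 to 5960.

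Of the genes tied to mineralocorticoid action, a few were called with AngII, higher in Ctrl females and in both directions in Ovx females. Of 13 tested, 3 were higher and none lower in Ctrl + AngII than in Ctrl, with a median of 0.13, where 4.8% of all genes were higher. In Ovx + AngII against Ovx 1 was higher and 1 lower, with a median of 0.13, where 5.09% of all genes were higher and 5.08% lower. Ctgf, a matrix growth factor gene with many other inducers, averaged 5316 ± 481 in Ovx + AngII and 1968 ± 328 in Ovx. It rose by 1.44 there (adjusted p = 5.6e-06 from limma) and by 1.83 in Ctrl females (adjusted p = 2.12e-07). The paper names Ctgf among the genes raised by AngII, and the list was chosen with earlier results of these data known. Its rise therefore adds no independent result for the list. Rnf207, a cardiac potassium channel regulator, fell by 0.42 in Ovx + AngII against Ovx (adjusted p = 0.0475). Of 17 tested estrogen-responsive genes, none passed in Ovx against Ctrl or in male Gx against male Ctrl. Only 0.109% and 0.0797% of all genes passed in these comparisons, so none of 17 passing says little about their response. In each of the female pairs 2 were higher with AngII, where 4.8% (Ctrl) and 5.09% (Ovx) of all genes were higher. Under AngII 1 passed in Ovx + AngII against Ctrl + AngII, where 1.01% of all genes did, the chemokine gene Cxcl12, which fell by 0.32 (adjusted p = 0.0495). The prostacyclin synthase gene Ptgis was among the genes higher with AngII in both female pairs. It averaged 593 ± 72.3 in Ovx + AngII and 442 ± 73.1 in Ovx, and 795 ± 100 in Ctrl + AngII and 494 ± 83.3 in Ctrl.

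Among themselves the 7 tested receptors were only loosely related over the 24 libraries, with Pearson r from -0.589 (Esr1 and Esrrg) to 0.435 (Esrra and Esrrg). Against 11925 genes with a mean of at least 50, Nr3c2 was most like Lbh (r = 0.875), a transcription cofactor gene of heart and limb development, then Carns1 (0.842), carnosine synthase, and Crhr2 (0.818), the urocortin receptor. Esrra was most like Bcat2 (0.857), the mitochondrial branched-chain aminotransferase, and Esrrg most like Cecr2 (0.83). Esr1 was most like Slc7a2 (0.778), Nr3c1 most like Dock11 (0.755), Esrrb most like Mdp1 (0.734) and Gper1 most like Erf (0.659). These values describe libraries that share groups, scale and cell makeup, and were picked as the highest of many.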

How the data were processed

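LV mRNA was measured in 24 libraries, grouped by the sample labels. The authors aligned reads to mm10 with STAR, used DESeq2 in BaseSpace for normalization, and deposited a normalized signal per gene that is not whole. Salmon is also named in the submitters' notes, and no versions are given. Whole reads could not be recovered, so no count model was used and depth is known only as relative. Every column had a sample (0 without one). The 14 rows named by dates (0.0552% of the values) and 1 unnamed row were left out, and 5718 genes were at 0 throughout. Within groups, the 36 pairs of libraries had Pearson r of 0.969 to 0.986 across genes and none was a duplicate.

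Values were rescaled by median-of-ratios and fitted in limma 3.58.1 (R 4.3.3) as log2(value + 1), with a variance trend and Benjamini-Hochberg adjustment, over genes with a mean of at least 10. The 16 female libraries shared a fit of 13816 genes for the female comparisons, and all 24 shared one of 13799 genes for the others. Exact permutation tests were two-sided over 70 splits, with a smallest p of 0.0286. The limma steps were tested on simulated data. p-values measure the spread between pools. The receptors and gene lists were chosen with earlier results of these data known.

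All 9 receptors are named, as are, by Pearson r over the 24 libraries, their most alike genes (3 each by the rule, of which the nearest is printed, and all 3 for Nr3c2), from each list up to 4 genes with the largest change past the adjusted p, and a set of ligand-handling and coregulator genes whatever their values. Sts and Hsd17b8 were not matched. Levels per kb used the GENCODE M21 length of the longest principal transcript. Promoter windows came from RefSeq. Alternatives were the deposited scale, an upper-quartile factor, other pseudocounts and filters, other libraries in the fit, library weights, no trend, libraries numbered 49 to 54 left out or given a term, and each library left out.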

Additional observations from a re-analysis of the deposited data

Results flagged for a closer look

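A single library stood apart from the other 3 of its group by Dixon's criterion in 4 of 42 groups of receptor values, where chance gives about 1 in 20. Gper1 was 31.0 in male Ctrl library 33, against 43.7 to 45.2 in the other male Ctrl libraries. Nr3c1 was 2666 in Ovx library 43, against 2182 to 2225 in the other Ovx libraries. Esrra was 3741 in Ovx library 44, against 3414 to 3427 in the others. Esrrb was 1417 in Ctrl library 37, against 1126 to 1159 in the others. The 4 values came from 4 different libraries.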

How the results depend on the processing

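No receptor passed the adjusted p together with the fold threshold under any alternative run. At the adjusted p alone, the deposited scale gave 3 receptors where none passed in Ctrl + AngII against Ctrl, 1 where none passed for the difference of the AngII effects, 6 where none passed in male Ctrl against Ctrl, and 2 in place of 1 in Ovx + AngII against Ovx. In Ovx + AngII against Ovx the count was 2 with library weights, 0 without the variance trend, and 0 to 2 when single libraries were left out. Ovx against Ctrl and Ctrl + AngII against Ctrl each gave 0 to 1 when single libraries were left out. On the deposited scale the exact tests separated 16 in place of 7 of 54 pairs. The share of all genes separated on that scale is not given here, so the 16 are no result about the receptors. Male Ctrl against Ctrl turned to -0.28 for Esrra, -0.21 for Esrrb and -0.22 for Esrrg, by the shift of all genes that the deposited scale carries. Over 56 receptor results and 1672 alternative values, 1653 kept their side of the threshold, 4 lost the call and 12 gained it with the same sign. A further 3 gained it with the opposite sign, those of Esrra, Esrrb and Esrrg in male Ctrl against Ctrl on the deposited scale. The sign of an uncalled difference changed in 16 results by alternatives other than the deposited scale. The counts of lower list genes were run under the same alternatives, a choice made after seeing the data. The estrogen-related receptor targets numbered 17 in Ctrl + AngII against Ctrl, with 43 on the deposited scale, 11 with no filter and 10 without the trend. They numbered 7 without libraries 49 to 54 and 9 to 19 when single libraries were left out. Over all genes 466 were lower there, with 6688 on the deposited scale, 368 with no filter, 328 without the trend and 214 without libraries 49 to 54. In Ovx + AngII against Ovx the targets numbered 16, with 25 on the deposited scale, 9 with no filter and 3 without libraries 49 to 54. They numbered 6 to 18 when single libraries were left out. Over all genes 702 were lower there, with 1685 on the deposited scale, 615 with no filter and 350 without libraries 49 to 54. The glucocorticoid-induced genes in Ovx against Ctrl numbered 4, with 9 on the deposited scale, 2 with no filter and 8 with library weights. They numbered 0 with other libraries in the fit, without the trend or without libraries 49 to 54, and 0 to 8 when single libraries were left out. Over all genes 8 were lower there, with 187 on the deposited scale, 4 with no filter and 147 with library weights. No gene at all was lower with other libraries in the fit, without the trend or without libraries 49 to 54, so no list gene could pass. In Ovx + AngII against Ctrl + AngII the glucocorticoid-induced genes numbered 3, with 1 with other libraries in the fit, 7 with library weights and 3 to 6 when single libraries were left out. Over all genes 83 were lower there, with 46 with other libraries in the fit and 157 with library weights. No paired analysis was possible because every library number occurs in 1 group only. Relative depth, 0.446 to 1.525 of the median library, limits Esr1, Gper1, Pgr and Esr2 most.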
